A study of Homo sapiens with 12 samples.

Results

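The 10 genes described here, TFRC, STEAP3, SLC11A2, SLC25A37, SLC25A28, FTH1, FTL, PCBP1, IREB2 and ACO1, encode proteins that take up, store or sense iron. They were taken by gene symbol from the 54628 genes of the count table, and earlier results of these data were known when they were chosen. All 10 were found and all 10 were among the 15492 genes that passed the filter on low counts.

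Erythroid precursors take up large amounts of iron because each hemoglobin chain carries a heme. Iron bound to transferrin enters through the transferrin receptor TFRC, is reduced in the endosome by STEAP3 and leaves the endosome through SLC11A2, after which the mitoferrins SLC25A37 and SLC25A28 carry it into mitochondria for heme and iron-sulfur cluster synthesis. Iron that is not used is delivered by the chaperone PCBP1 to ferritin, a shell of FTH1 and FTL subunits. The iron regulatory proteins ACO1 and IREB2 bind a short RNA hairpin, the iron-responsive element, when iron is low: bound in a 5′ UTR they block translation, as for ferritin, and bound in the 3′ UTR of TFRC they protect the mRNA from decay.

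RNA-seq was performed on HUDEP-2, an immortalized line of erythroid precursors derived from human umbilical cord blood, in 12 libraries that form 4 groups of 3 replicates. The cells carried a lentiviral dCas9-KRAB repressor and EGFP together with a scrambled guide (sgControl) or a guide against a regulatory element near EGR1 (sgEGR1), and had been sorted for GFP. Cells of every group were starved for 5 h in SFEM medium with albumin and then given PBS or 50 ng/mL stem cell factor (SCF), the ligand of the Kit receptor, for 1 h. The 4 groups are therefore sgControl PBS, sgControl SCF, sgEGR1 PBS and sgEGR1 SCF, all from 1 cell line. The sources call the replicates biological and individually isolated, and do not say whether they came from separate infections, so p-values measure the spread between these samples.

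Libraries held 23498065 to 32039680 counts. Of 12 erythroid markers, 11 had more than 3 counts in every library, HBG1 being the exception, and their summed level was 22287 to 27036 CPM, counts scaled to a common library size. The myeloid list summed to 7.73 to 15.8 CPM, with SPI1 above 3 counts in every library and MPO and ELANE at 0. The megakaryocyte list summed to 13.0 to 36.1 CPM, with ITGA2B, ITGB3 and GP1BA above 3 counts in every library and PF4, PPBP and GP9 at 0. None of 6 lymphoid markers had more than 3 counts in every library. EGR1, the targeted gene, averaged 8.10 ± 2.51 CPM (SD, n = 3) in sgControl PBS, 206 ± 34.0 in sgControl SCF and 1.38 ± 0.580 in sgEGR1 PBS. In sgEGR1 SCF it was 40.4, 57.4 and 204 CPM, so that replicate 3 lay inside the sgControl SCF range of 171 to 239 CPM and went against its label. It is written as labelled sgEGR1 SCF replicate 3 below, and the main SCF, guide and interaction results are also given with it left out. In all 4 groups replicate 1 was separated from the other libraries, and edgeR called 26.6% of genes between them.

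The sgEGR1 guide is shown because it defines the groups, and the capitals of the other sequences mark the 6-base loop CAGTGN that the iron regulatory proteins recognize. This guide had 1 exact match in hg38, at chr5:138464830-138464849 on the plus strand next to the PAM CGG, 630 bases upstream of the start of the EGR1 MANE Select transcript. It therefore had no exact match at any of the 10 genes. The study places the element it targeted farther upstream of the EGR1 start than this match, and that difference was not examined. The guide is written 5′ to 3′.
sgEGR1 guide: ggatgacagcgatagaaccc

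Iron-responsive elements were searched in the annotated coding transcripts of 8 of the 10 genes as an unpaired C, 5 bases, the loop CAGTGN and 5 bases that pair with the 5 before the loop (GENCODE v44, GRCh38). FTH1 and SLC25A37 had no entry in the promoter set used below and were not searched, so the result says nothing about hairpins in their mRNAs. FTL held 1 such hairpin in its 5′ UTR and TFRC held 4 in its 3′ UTR. Hairpins with a mismatch or an extra base within those 5 pairs would be missed, so these are counts of this pattern alone. No match was found in the UTRs of the other 6 genes searched, which says only that these letters are not there. The FTL hairpin is on the plus strand at chr19:48965335-48965363. The TFRC hairpins are on the minus strand at chr3:196050979-196051007, chr3:196050575-196050603, chr3:196050510-196050538 and chr3:196050463-196050491, and are listed in that order, from 5′ to 3′ along the mRNA.
FTL 5′ UTR: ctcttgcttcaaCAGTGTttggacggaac
TFRC 3′ UTR, hairpin a: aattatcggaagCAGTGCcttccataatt
TFRC 3′ UTR, hairpin b: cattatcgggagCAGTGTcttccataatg
TFRC 3′ UTR, hairpin c: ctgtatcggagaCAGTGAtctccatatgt
TFRC 3′ UTR, hairpin d: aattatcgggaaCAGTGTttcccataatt

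The pattern was present in 0.101% of the 5′ UTRs and 0.650% of the 3′ UTRs of MANE Select transcripts, and TFRC was the 1 gene of 18780 with 3 or more copies in its 3′ UTR. Below the unpaired C, the TFRC hairpins had 5 or 6 of 6 further pairs and the FTL hairpin had 4. Each of the 4 TFRC copies was present in 13 of 16 annotated coding transcripts of the gene. RNA-seq reads the amount of these mRNAs and not the translation or protein that the hairpins control.

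The question of which steps of iron handling the cells express most was addressed with the level of each gene per kilobase of its MANE Select transcript (CPM per kb). Setting different genes side by side on this scale assumes that the cells express that transcript, which was not examined. The ferritin subunits stood highest: FTL averaged 3088 ± 199 CPM per kb (SD over 12 libraries) and FTH1 2954 ± 276, ranks 6 and 7 of 11850 genes with a MANE transcript, and their ranges overlapped. The erythroid mitoferrin SLC25A37 averaged 870 ± 68.1 CPM per kb (rank 68) and TFRC 703 ± 35.6 (rank 76), with ranges that met at 749 to 751. PCBP1 followed at 236 ± 7.89 CPM per kb.

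The other 5 genes lay well below these. SLC11A2 averaged 21.9 ± 1.16 CPM per kb and IREB2 19.1 ± 0.995, with overlapping ranges. SLC25A28, the mitoferrin found in most tissues, averaged 16.2 ± 0.648, STEAP3 13.1 ± 0.928 and ACO1 9.33 ± 0.429 CPM per kb, and the ranges of these 3 did not overlap each other. TFRC, SLC25A37, FTH1 and FTL alone made up 94.3% to 95.2% of the counts of the 10 genes, which together took 1.37% to 1.58% of each library.

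**Figure D1:**
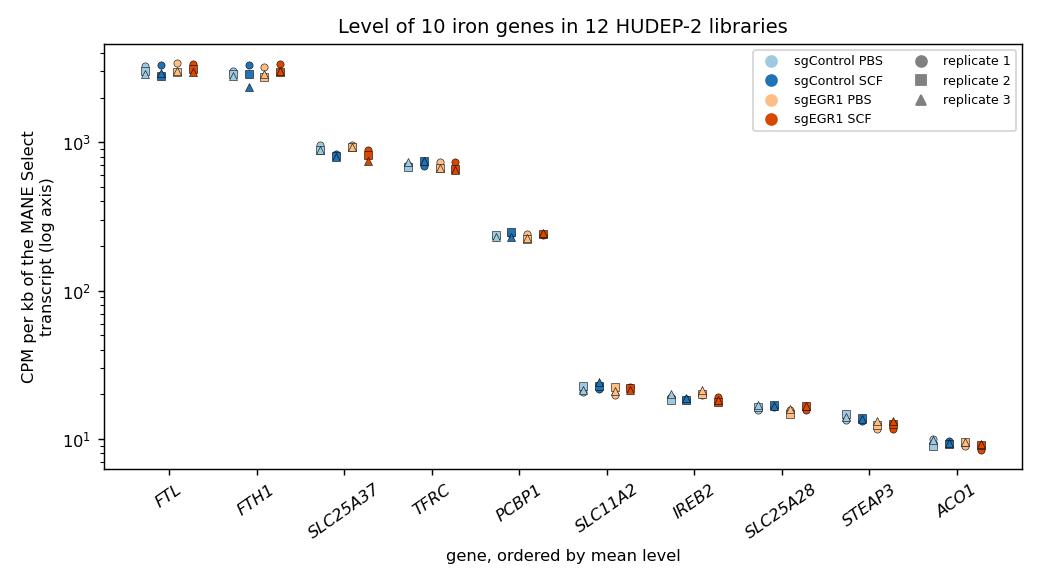
Level of each of the 10 iron genes in CPM per kilobase of MANE Select transcript (vertical log axis), 1 point per library, coloured by group and shaped by replicate number. FTL and FTH1 average 3088 and 2954, SLC25A37 and TFRC 870 and 703, PCBP1 236, and the other 5 genes lie between 8.46 and 24.2 in every library.

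Some genes of like role differed in level and others were near parity. SLC25A37 exceeded SLC25A28 by 45.0 to 63.2 times per kb in the 12 libraries, and TFRC exceeded TFR2, the iron-sensing second transferrin receptor, by 4.64 to 6.43 times. IREB2 exceeded ACO1 by 1.92 to 2.27 times per kb. Near parity were the ferritin subunits, with an FTH1 to FTL ratio of 0.795 to 1.03 and a median of 0.958 per kb, and the iron chaperones PCBP1 and PCBP2, with a ratio of 0.971 to 1.17 and a median of 1.11.

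The levels varied little between libraries. The coefficient of variation over all 12 libraries ran from 3.34% for PCBP1 to 9.36% for FTH1, while the median of the 8717 genes with a mean of at least 10 CPM was 6.91%. The lowest count behind any value was 566, for SLC25A28, and counts of TFRC, SLC25A37, FTH1 and FTL were 64995 or more in every library.

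The effect of acute Kit signaling was examined by comparing SCF with PBS within each guide group and as the mean of both groups. SLC25A37, which imports iron into erythroid mitochondria, was the member that changed: it fell by 0.18 on the log2 scale (SE 0.041, edgeR adjusted p = 0.0160) in the mean of both guide groups, to 0.882-fold (95% interval 0.829 to 0.939). The other 9 genes were not called, with log2 fold changes of -0.09 to 0.07. In bulk samples fewer cells of a type and less RNA per cell cannot be told apart.

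That is 1 of 10 members, where 9.03% of all genes tested were called and 3.45% were called lower, so the share of members called was near the background. Within sgControl, edgeR called 0 of 10 members (2.89% of all genes) and DESeq2 0 (4.9%), and 1 member had an unadjusted edgeR p under 0.05 (14.3%). Within sgEGR1, edgeR called 0 of 10 (2.59% of all genes) and DESeq2 1, SLC25A37 (4.99%), and 2 had an unadjusted edgeR p under 0.05 (15%). In the mean of both, 2 members had an unadjusted edgeR p under 0.05 (22.7%), SLC25A37 and IREB2. The median log2 fold change of the members was -0.02 within sgControl and 0.01 within sgEGR1, beside -0.01 and -0.00048 over all genes.

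SLC25A37 lies on chromosome 8 and has 4 exons. It stood at 4443, 4121 and 4161 CPM in replicates 1 to 3 of sgControl PBS and at 3919.7, 3782 and 3699.9 in sgControl SCF. In sgEGR1 it stood at 4488, 4351 and 4338 CPM after PBS and at 4138, 3812 and 3499 after SCF. Every SCF library was below every PBS library of the same guide, so the groups did not overlap in either guide group, which held, in the same direction in both, for 9.04% of all genes.

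The difference was -0.16 (SE 0.058, edgeR adjusted p = 0.210) within sgControl and -0.20 (SE 0.058, adjusted p = 0.0973) within sgEGR1 on the log2 scale, and neither passed the threshold alone. With a term for replicate 1 added to the edgeR fit, both did, at adjusted p = 0.0206 and 0.00474. With the library labelled sgEGR1 SCF replicate 3 dropped from the fit, the difference was -0.14 within sgEGR1 (edgeR adjusted p = 0.302) and -0.15 in the mean (adjusted p = 0.0308). With library totals alone as the scaling, the mean difference was -0.16 and its call was lost (edgeR adjusted p = 0.0508), and the median of all genes moved by less than 0.1.

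SLC25A28, the other mitoferrin (chr10:99610519-99622793, minus strand, 4 exons), ranged from 22.5 to 25.8 CPM over all libraries. Its SCF difference averaged over the guides was 0.06 (SE 0.040) and was not called, and its interval of 0.978-fold to 1.10-fold did not overlap that of SLC25A37. The SLC25A37 to SLC25A28 ratio per kb was 55.9 ± 4.46 in sgControl PBS and 48.9 ± 2.05 in sgControl SCF, and 60.9 ± 2.36 in sgEGR1 PBS and 50.0 ± 5.68 in sgEGR1 SCF (SD, n = 3).

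IREB2 (chr15:78437431-78501453, plus strand, 22 exons), an iron regulatory protein that is degraded when iron is plentiful, showed its lower values after SCF in sgEGR1. It stood at 125, 127 and 134 CPM in sgEGR1 PBS and at 121, 112 and 116 in sgEGR1 SCF, which did not overlap. In sgControl it stood at 121, 115 and 127 CPM after PBS and 117, 116 and 119.7 after SCF, which did overlap.

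The IREB2 difference was -0.14 (SE 0.049, edgeR adjusted p = 0.175) within sgEGR1 and -0.04 (SE 0.049, adjusted p = 0.784) within sgControl. Without the doubtful replicate 3 of sgEGR1 SCF, the sgEGR1 difference was -0.13 (edgeR adjusted p = 0.387). The mean over both guides was -0.09 (SE 0.034, edgeR adjusted p = 0.124), with an interval of 0.890-fold to 0.988-fold. IREB2 and SLC25A37 were the 2 of 10 members whose groups did not overlap within sgEGR1, where 21.2% of all genes did not overlap, and SLC25A37 was the 1 member within sgControl, against 19.6% of all genes. The difference between the guides in the SCF effect on IREB2 was -0.10 (SE 0.069, edgeR adjusted p = 1.00).

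ACO1 (chr9:32384603-32454769, plus strand, 21 exons), the other iron regulatory protein and a cytosolic aconitase when it holds an iron-sulfur cluster, ranged from 63.0 to 74.3 CPM. Its SCF difference averaged over the guides was -0.04 (SE 0.038), within an interval of 0.917-fold to 1.03-fold.

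TFRC (chr3:196012511-196082153, minus strand, 19 exons), the main route of iron entry, stood at 3541, 3393 and 3668 CPM in sgControl PBS and at 3486, 3717 and 3763 in sgControl SCF. In sgEGR1 it stood at 3705, 3386 and 3366 CPM after PBS and at 3672, 3292 and 3269.9 after SCF. PBS and SCF overlapped in both guide groups, and the mean difference of 0.01 (SE 0.042) had an interval of 0.945-fold to 1.07-fold.

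The other uptake genes were not called either. STEAP3, the endosomal ferrireductase, had a mean SCF difference of -0.02 (SE 0.043). SLC11A2 (chr12:50979401-51028566, minus strand, 16 exons), the divalent metal transporter, ranged from 81.7 to 100.1 CPM and had a mean SCF difference of 0.07 (SE 0.040), with an interval of 0.990-fold to 1.12-fold.

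Ferritin did not pass the test after SCF. FTL differed by -0.01 (SE 0.055, interval 0.915-fold to 1.08-fold) and FTH1 by 0.03 (SE 0.074, interval 0.910-fold to 1.14-fold) in the mean of both guides. PCBP1 (chr2:70087477-70089203, plus strand, 1 exon), which delivers iron to ferritin, ranged from 387 to 430.1 CPM and differed by 0.06 (SE 0.030, interval 0.994-fold to 1.09-fold).

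**Figure D2:**
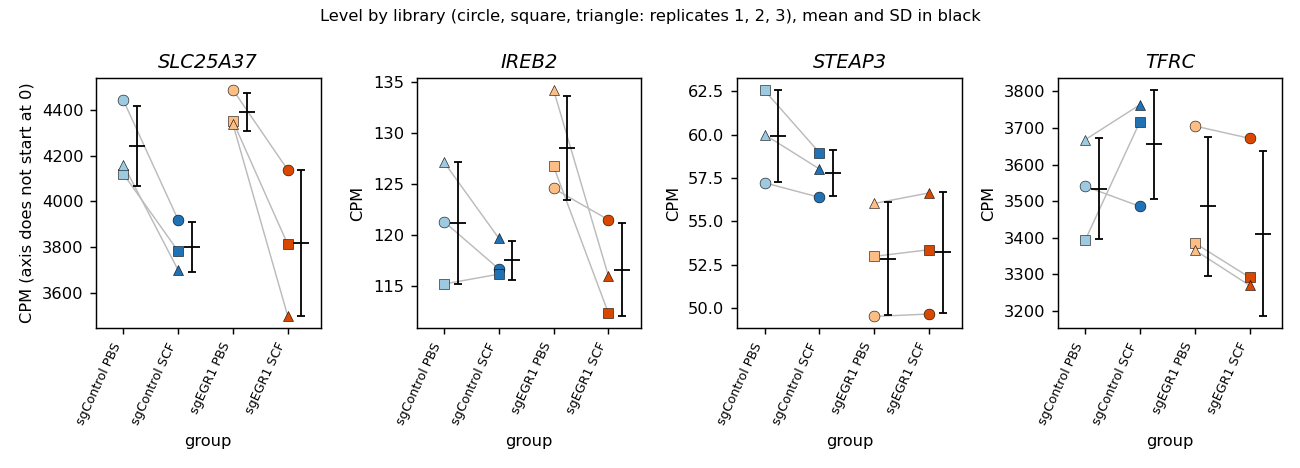
CPM of SLC25A37, IREB2, STEAP3 and TFRC in each library of the 4 groups, with grey lines joining the PBS and SCF libraries of 1 replicate number and black marks for the mean and SD (n = 3); the vertical axes do not start at 0. SLC25A37 is lower after SCF in both guide groups without overlap, IREB2 in sgEGR1 alone, STEAP3 is lower in sgEGR1 than in sgControl after PBS without overlap, and the TFRC groups overlap.

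The effect of the EGR1 guide was examined by comparing sgEGR1 with sgControl after each treatment and as the mean of both. In edgeR, 0 of 10 members were called after PBS, after SCF or in the mean (0% of all genes in each comparison), while 1, 0 and 1 had an unadjusted p under 0.05 (4.62%, 2.33% and 5.2% of all genes). The targeted gene EGR1 was not called by edgeR either, at -2.59 (SE 0.80, adjusted p = 0.999) after PBS. After SCF it was at -1.03 (SE 0.45) on the log2 scale and also not called. The lack of member calls therefore says little about small guide effects. DESeq2 called 0 members in each (0.129%, 0.0323% and 0.181% of all genes). These fits did not pair same-numbered libraries. With a replicate block, edgeR also called 0 members in each (0.0129%, 0.0129% and 0.316% of all genes). Mean differences of the 10 genes lay between -0.15 and 0.08 on the log2 scale, with a median of -0.03 beside -0.00066 over all genes.

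STEAP3 (chr2:119223831-119265652, plus strand, 6 exons) had the lowest of these values. It stood at 57.2, 62.5 and 60.0 CPM in sgControl PBS and at 49.5, 53.0 and 56.0 in sgEGR1 PBS, and these groups did not overlap. After SCF it stood at 56.4, 59.0 and 58.0 CPM in sgControl and at 49.7, 53.4 and 56.6 in sgEGR1, and here only the library labelled sgEGR1 SCF replicate 3 lay above the lowest sgControl value. STEAP3 was 1 of 10 members without overlap after PBS, where 9.31% of all genes did not overlap. No member was free of overlap in the same direction after both treatments (0 of 10, against 0.639% of all genes).

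The STEAP3 difference was -0.18 (SE 0.062, edgeR adjusted p = 0.999) after PBS and -0.12 (SE 0.061, adjusted p = 1.00) after SCF. Its mean of -0.15 (SE 0.043, interval 0.844-fold to 0.963-fold) ranked 92 of 15492 genes by p and was not called (edgeR adjusted p = 0.794). With the replicate block, which pairs same-numbered libraries, the mean was -0.15 and not called (edgeR adjusted p = 0.0686, 0.316% of all genes called). With the replicate 1 term it was not called either (edgeR adjusted p = 0.0537, 0.374% of all genes called). STEAP3 was called in 1 of 20 alternative fits, at -0.17 (edgeR adjusted p = 0.0176). That fit had the replicate 1 term and left out the library labelled sgEGR1 SCF replicate 3, and it called 233 (1.47%) of all genes. All 6 differences between same-numbered libraries were negative, from -0.24 to -0.03. The value of -0.03 came from the library labelled sgEGR1 SCF replicate 3. The share of all genes with 6 differences of like sign was not counted.

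ACO1 was the 1 member whose guide groups did not overlap after SCF, against 7.14% of all genes, at 71.6, 69.3 and 70.4 CPM in sgControl and 63.0, 67.5 and 68.8 in sgEGR1. After PBS its groups overlapped, and its mean guide difference was -0.06 (SE 0.038, edgeR adjusted p = 0.969). The mean guide difference of TFRC was -0.06 (SE 0.042), that of SLC11A2 -0.05 (SE 0.040) and that of SLC25A28 -0.05 (SE 0.040).

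For FTH1 it was 0.08 (SE 0.074), for FTL 0.04 (SE 0.055), for IREB2 0.04 (SE 0.034) and for SLC25A37 0.03 (SE 0.041), none of them called. PCBP1 had the smallest size, at -0.0019 (SE 0.030), with an interval of 0.954-fold to 1.05-fold. With the doubtful library dropped, the mean guide differences of the 10 genes kept their signs, from -0.18 for STEAP3 (edgeR adjusted p = 0.369) to 0.09 for FTH1, with ACO1 at -0.08 and SLC25A37 at 0.05, and none was called.

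The SCF effect was also compared between the guide groups by an interaction term. No member was called in edgeR (0 of 10, 0% of all genes), 0 had an unadjusted p under 0.05 (1.98%), and DESeq2 called 0 members (0.0258%). The difference of the SCF effects was -0.04 (SE 0.082) for SLC25A37, with an interval from 0.857-fold to 1.10-fold, and it turned to 0.02 (SE 0.072) when the doubtful replicate 3 of sgEGR1 SCF was dropped. Over the 10 genes the differences ran from -0.10 to 0.10 with that library and from -0.09 to 0.12 without it, and no member was called either way.

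**Figure D3:**
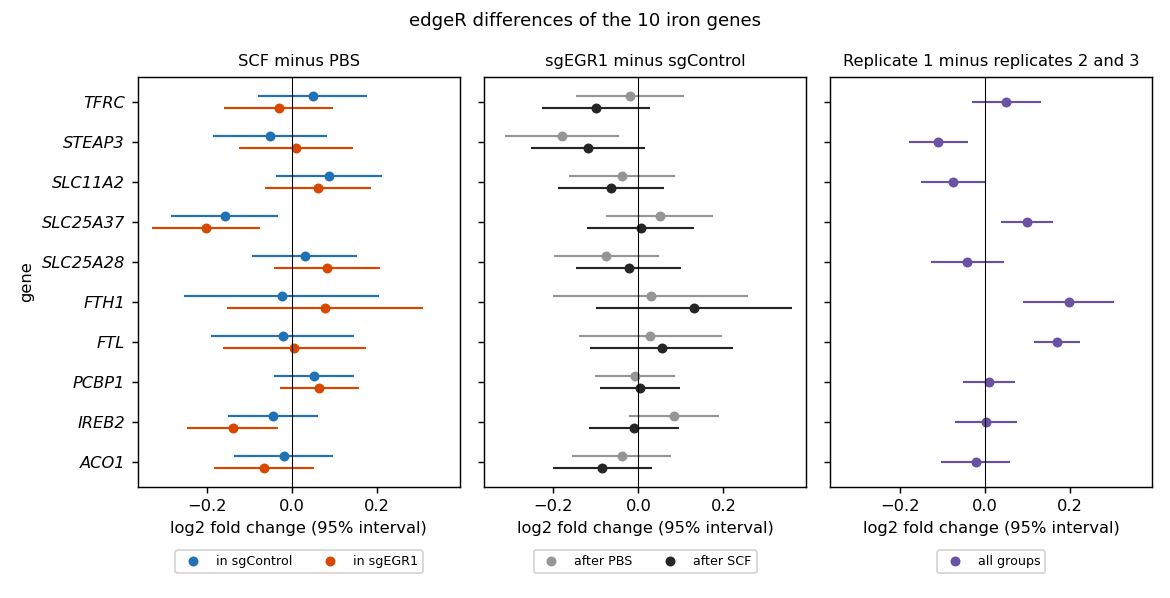
edgeR log2 fold changes of the 10 iron genes (points) with 95% intervals (lines) for SCF minus PBS in each guide group, sgEGR1 minus sgControl after each treatment, and replicate 1 minus replicates 2 and 3. SLC25A37 lies below 0 after SCF in both guide groups, STEAP3 lies lowest in the guide comparison, and FTL and FTH1 lie highest in the replicate 1 comparison.

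Replicate 1 was compared with replicates 2 and 3 over all groups because that split separated the libraries. The split was thus chosen from these same data, and its p-values and calls are given as a description. FTL, FTH1 and SLC25A37 were higher and STEAP3 was lower in replicate 1, so that 4 of 10 members were called in edgeR where 26.6% of all genes were, 13.1% higher and 13.4% lower. With library totals as the scaling 16.9% of all genes were higher and 9.05% lower, and of the members 3 were higher and 0 lower. Summed megakaryocyte markers were 13.0 to 17.3 CPM in replicate 1 and 21.6 to 36.1 CPM in the others, myeloid markers 10.9 to 15.8 and 7.73 to 11.8 CPM, and erythroid markers 22287 to 25195 and 23815 to 27036 CPM, and their part in these differences was not tested.

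FTL (chr19:48965309-48966879, plus strand, 4 exons), the light ferritin subunit that promotes mineralization of the iron core, separated completely. Its 4 values in replicate 1 were 2849, 2888, 2965 and 2919.9 CPM in sgControl PBS, sgControl SCF, sgEGR1 PBS and sgEGR1 SCF, and the other 8 libraries lay between 2437 and 2699 CPM. The difference was 0.17 (SE 0.025, edgeR adjusted p = 0.00032), or 1.13-fold. FTL was the 1 member without overlap in this split, against 11.8% of all genes, and it was called in all 16 alternative fits.

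FTH1 (chr11:61959718-61967634, minus strand, 4 exons), the heavy subunit with ferroxidase activity, stood at 3619, 3494 and 3337 CPM in replicates 1 to 3 of sgControl PBS and at 3988, 3469 and 2818 in sgControl SCF. In sgEGR1 it stood at 3889, 3289.9 and 3484 CPM after PBS and at 4029.95, 3567 and 3653 after SCF. Replicate 1 was the highest of its group in 4 of 4 groups, and replicate 3 of sgControl SCF was the lowest of all libraries.

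The FTH1 difference of replicate 1 was 0.20 (SE 0.050, edgeR adjusted p = 0.0107), and without sgControl SCF replicate 1 it was 0.15 and not called (edgeR adjusted p = 0.0783). SLC25A37 was 0.10 higher (SE 0.028, adjusted p = 0.0198) and also highest in 4 of 4 groups. STEAP3 was 0.11 lower in replicate 1 on the log2 scale (log2 fold change -0.11, SE 0.032, edgeR adjusted p = 0.0225) and lowest in 4 of 4 groups. The share of all genes with replicate 1 highest or lowest in 4 of 4 groups was not counted. The SLC25A37 call was lost without replicate 1 of sgControl PBS (0.10) or of sgEGR1 SCF (0.07), and the STEAP3 call without replicate 1 of sgControl PBS, sgEGR1 PBS or sgEGR1 SCF (-0.11, -0.10 and -0.10).

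The spread of each gene over the 12 libraries was divided among replicate number, treatment and guide. Replicate number held 83.0% of the sum of squares of FTL and 52.6% of that of FTH1, where the median gene with a mean of at least 10 CPM had 27.3%. Treatment held 68.7% of that of SLC25A37, 42.0% of IREB2 and 39.0% of PCBP1, where the median gene had 14.8%, and 0.264% of FTL and 0.582% of FTH1. The guide held 58.7% of that of STEAP3, where the median gene had 3.76%. For TFRC and ACO1 the rest, assigned to no factor, was 58.8% and 52.1%.

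**Figure D4:**
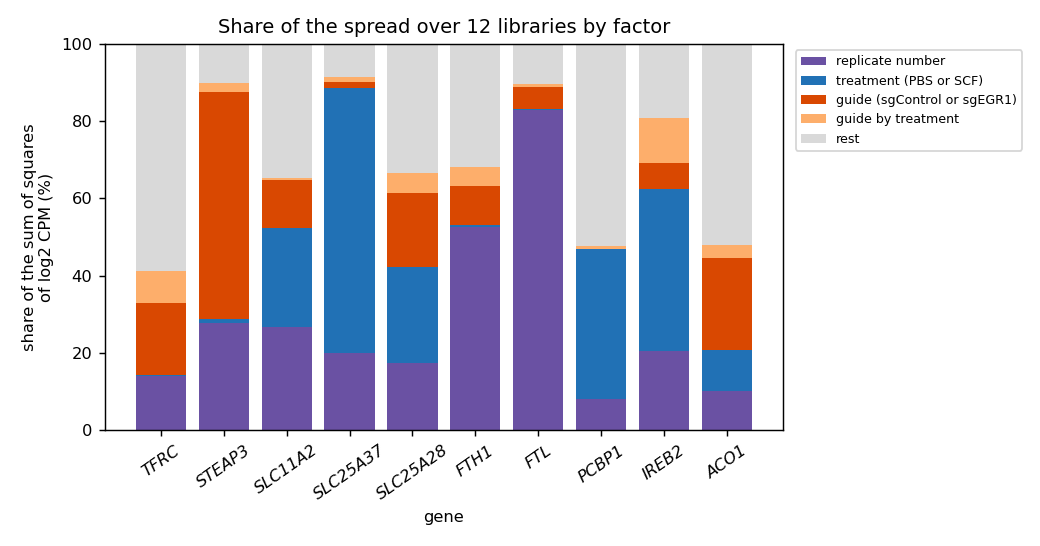
Share of the sum of squares of log2 CPM over 12 libraries (vertical axis, percent) held by replicate number, treatment, guide, guide by treatment and the rest, 1 stacked bar per gene. Replicate number holds 83.0% for FTL, treatment 68.7% for SLC25A37 and guide 58.7% for STEAP3.

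Across the 12 libraries, which share their normalization, the 10 genes did not move as 1 block. Over their 45 pairs the median Pearson r of log2 CPM was -0.04, with 4 pairs above 0.5 and 7 below -0.5, given as a description. FTH1 and FTL had r = 0.71, and 0.70 after the group means were removed. That step leaves differences between replicate numbers in place, and both genes were higher in replicate 1. SLC25A37 and IREB2 had r = 0.67, and 0.18 after the group means were removed.

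The genes most like 3 of the members over the 12 libraries were taken from 8700 genes by Pearson r of log2 CPM. For SLC25A37 they were COQ8A (r = 0.95), ABTB1 (0.94) and GTPBP2 (0.94). For FTH1 they were PGP (0.95), ZNF414 (0.93) and WWOX (0.93). TFRC was followed less closely, by ACSL1 (0.83), REST (0.78) and BUB1B (0.78).

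To place the 10 genes in their pathway, 60 other genes of iron uptake, export, ferritin turnover, iron-sulfur cluster assembly, heme transport and iron-responsive mRNAs were examined, of which 48 passed the filter. After SCF, 2 of 48 were called in the mean of both guides, both lower: NDOR1, a diflavin reductase of cytosolic iron-sulfur cluster assembly, at -0.25 (SE 0.048, edgeR adjusted p = 0.00698), and IBA57, a late factor of mitochondrial cluster assembly, at -0.19 (SE 0.054, adjusted p = 0.0493). Their share of 48 was below the 9.03% of all genes, and the median of the list was 0.01. The count was 1 in 8 of the 12 fits that left out 1 library (sgControl PBS replicate 3, any sgControl SCF library, or replicate 2 or 3 of sgEGR1 PBS or sgEGR1 SCF), and in 1 fit, without sgControl PBS replicate 2, 1 of 2 calls was higher. With library totals 4 were called, 2 higher and 2 lower. Within sgControl and within sgEGR1 edgeR called 0 of 48 (2.89% and 2.59% of all genes) and DESeq2 2 and 1 (4.9% and 4.99%), while 2 and 4 had an unadjusted edgeR p under 0.05 (14.3% and 15%).

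In the guide comparisons edgeR called 0 of 48 after PBS, after SCF and in the mean (0% of all genes in each) and DESeq2 0 in each (0.129%, 0.0323% and 0.181%), while 1, 0 and 1 had an unadjusted edgeR p under 0.05 (4.62%, 2.33% and 5.2%). The list was separated by replicate number instead: 25 of 48 genes were called between replicate 1 and the others, 9 higher and 16 lower, where 26.6% of all genes were called. Its median there was -0.06, beside 0.0044 over all genes.

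Among the 9 higher in replicate 1 were EPAS1, a hypoxia-inducible factor whose mRNA carries an iron-responsive element, at 1.14 (SE 0.058, edgeR adjusted p = 6.88e-08), PCBP4 at 0.52, FBXL5, the iron-sensing subunit of the ligase that degrades IREB2, at 0.17, and ABCB8 at 0.17. EPAS1 ranged from 17.6 to 28.9 CPM in replicate 1 and from 8.51 to 12.3 CPM in the other libraries. Among the 16 lower were ISCA2 and GLRX5, factors of mitochondrial iron-sulfur cluster assembly, at -0.35 and -0.32, the metal importer SLC39A8 at -0.34 and the iron exporter ferroportin, SLC40A1, at -0.30. By role, 8 of 18 genes of mitochondrial iron and cluster assembly were lower and 1 was higher, 4 of 7 uptake genes were lower and 1 was higher, and 1 of 2 genes of export and systemic control was lower. Of the 5 other mRNAs with an iron-responsive element 3 were higher and 1 was lower, of the 5 genes of chaperones, ferritin turnover and IRP control 2 were higher and 1 was lower, of the 8 genes of cytosolic cluster assembly 1 was higher and 1 lower, and of the 3 heme transporters 1 was higher, where 13.1% of all genes were higher and 13.4% lower.

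**Figure D5:**
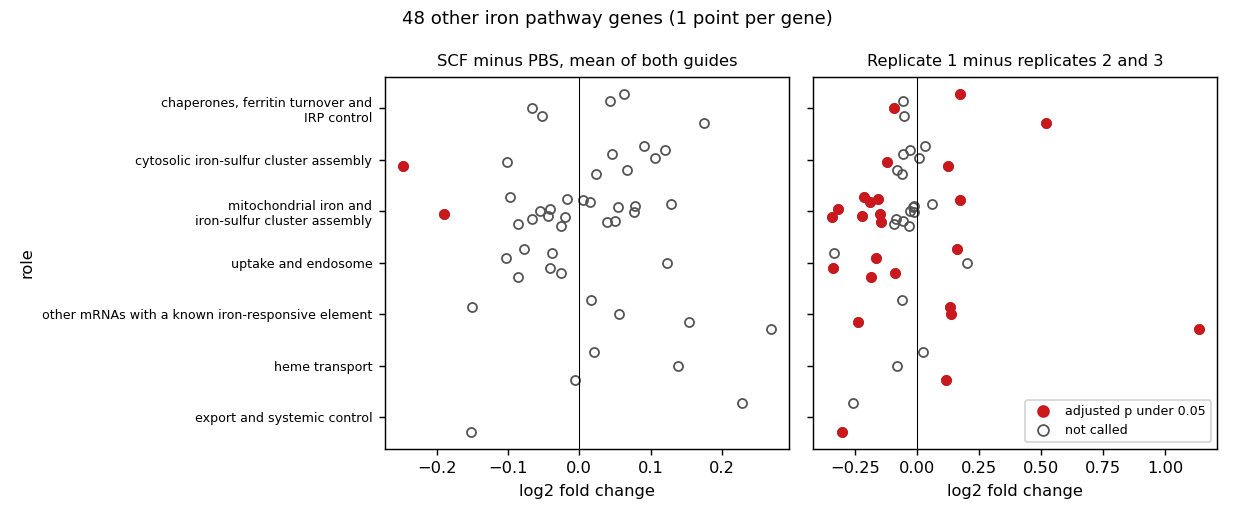
edgeR log2 fold changes (horizontal axes, on different scales) of 48 other iron pathway genes by role, 1 point per gene, filled red where the adjusted p passed the threshold. After SCF 2 of 48 genes are called, both lower, and between replicate 1 and the other replicates 25 of 48 are, with EPAS1 farthest at 1.14.

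Promoters were examined because EGR1 and AP-1 factors are induced by SCF. Of the 10 members, 8 had 12 promoter windows of 300 bases, 250 before and 50 after the start, in RefSeq (GRCh38.p14), and SLC25A37 and FTH1 had none. The motifs searched on both strands were GCGTGGG for EGR factors, TGANTCA for AP-1, AGATAA for erythroid GATA factors and CACGTG for the E-box, none of which contains another, and they were present in 6.98%, 7.72%, 10.4% and 7.23% of 34943 promoter windows. SLC11A2, with 4 windows, held 1 EGR, 1 AP-1 and 1 GATA match, each in a different window. The other 7 genes held none, which says only that these letters are not in these windows.

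Some of the counts could include reads of other genes. The table lists 25 FTH1 pseudogenes, which together held 0.728% to 0.940% of the FTH1 count, and 19 FTL pseudogenes with 0.143% to 0.180% of the FTL count, and reads of near-identical copies may be split between them. Exons of 5 of the 10 genes overlap a gene on the opposite strand: BEST1 for FTH1 (mean 3.45 CPM), STEAP3-AS1 for STEAP3 (0.601 CPM), PCBP1-AS1 for PCBP1 (0.394 CPM), and for TFRC and SLC25A28 loci that were not analysed here. The study's methods describe the libraries as strand-specific, but the sources do not say whether strand was used in counting.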

How the data were processed

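Gene counts of 12 HUDEP-2 RNA-seq libraries were analysed. HISAT 2.1.0 (alignment, hg38) and StringTie 2.1.1 (gene counts) were run by the authors; the deposited values are estimated counts per gene, not scaled for depth or length, and 0 of them were not whole. The annotation release is not given in the sources used here, and 0 columns belonged to no sample. Library depth was 23498065 to 32039680 counts, and a floor of 3 counts was 0.0937 to 0.128 CPM. Replicate libraries of a group differed by more than sampling noise.

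Genes were filtered with filterByExpr (15492 tested), scaled by TMM and tested with edgeR 4.0.16 quasi-likelihood tests in R 4.3.3, with 1 coefficient per group over all 12 libraries. The replicate 1 comparison added 1 term to the groups and was chosen after these data had shown replicate 1 apart. Benjamini-Hochberg adjustment covered all genes tested, with calls at 0.05. CPM used TMM library sizes. The code was tested on simulated data.

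Alternatives were DESeq2 1.42.0, its size factors, library totals, no filter, fits on the groups compared alone, a replicate block, a replicate 1 term, replicates 2 and 3 only, and each library left out. Same-numbered libraries deviated together between guides (residual r of 0.102 to 0.269 in all 6 pairs). The main guide tests did not use this pairing, and the fit with a replicate block did.

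All members are named with values. Of the other iron genes, up to 4 called per direction and comparison are named, by largest change, with a mean of at least 2 CPM; of the most alike genes, 3 per member with a mean of at least 10 CPM. Sequences came from hg38, GENCODE v44 and the study's guide list; the sgControl guide sequence is not reported here. The members and lists were chosen with earlier results of these data known.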

Additional observations from a re-analysis of the deposited data

How the results depend on the processing

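Of 175 alternative values for counts of called genes, 155 stayed within 1.5 times the count reported. In the guide and interaction comparisons that count was 0, where 0% of all genes were called, so staying at 0 there says little. Of 590 alternative values for single log2 fold changes, 547 kept their direction and their side of the threshold, 9 lost and 12 gained the call, and 22 reversed. Over 1600 values of the 10 members, 91 changed sign, 0 of them where the gene was called in either fit, and the largest value that changed sign was 0.10 in size. Where a call changed, the cause was not tested.

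With the replicate block, edgeR called 1 member after SCF within sgControl, 2 within sgEGR1 and 2 in the mean, where 7.64%, 7.97% and 18.1% of all genes were called, IREB2 being the addition (mean -0.09, edgeR adjusted p = 0.0354; within sgEGR1 -0.14, adjusted p = 0.0465). Same-numbered PBS and SCF libraries had residual correlations of 0.0077 to 0.272, above 0.1 in 3 of 6 pairs, both replicate 1 pairs included (0.272 and 0.230), so they were not treated as paired. The block changed no member call between guides. With the replicate 1 term, members called were 1 within sgControl and 1 within sgEGR1, where 8.32% and 8.56% of all genes were called. They were again 1 and 1 when the library labelled sgEGR1 SCF replicate 3 was left out too (7.49% and 4.92% of all genes). In that fit 1 was called in the mean guide comparison (1.47% of all genes). DESeq2 and replicates 2 and 3 alone each called 1 member within sgEGR1 (4.99% and 4.45% of all genes). With library totals 0 members were called in the mean of both guides (9.88% of all genes).

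Over the 12 fits that leave out 1 library, members called ran from 0 to 1 after SCF within sgEGR1 (1 without sgEGR1 SCF replicate 1), where 1.11% to 2.7% of all genes were called. In the replicate 1 comparison they ran from 2 to 4 (2 without sgControl PBS replicate 1), where 18.1% to 24.6% of all genes were called. The SLC25A37 call in the SCF mean held in all 12 fits. STEAP3 lost its replicate 1 call with library totals (-0.08, edgeR adjusted p = 0.107) and in DESeq2 (-0.11, adjusted p = 0.0526).

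Of the other iron genes, DESeq2 called 2 after SCF within sgControl, 1 within sgEGR1 and 4 in the mean (4.9%, 4.99% and 11.6% of all genes). With the replicate 1 term these were 4, 5 and 12, where 8.32%, 8.56% and 18.5% of all genes were called, and 1 was called in the mean guide comparison (0.374%).

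The reversed log2 fold changes were all of uncalled genes. In the SCF mean they were STEAP3 with library totals (0.0021), FTL with library totals (0.015) and without the filter (0.0022), and FTH1 in replicates 2 and 3 alone (-0.013). Leaving out 1 library gave -0.017 to 0.033 for TFRC, -0.043 to 0.0054 for STEAP3, -0.033 to 0.089 for FTH1 and -0.042 to 0.025 for FTL in the SCF mean, and -0.0026 to 0.054 for SLC25A37 and -0.023 to 0.0064 for PCBP1 in the guide mean.

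With 3 libraries a group, the mean SCF differences of the 10 genes had standard errors of 0.030 to 0.074, derived from the edgeR tests. These set the precision, more than counts of 566 or more per gene and library do.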
